A study of Mus musculus with 12 samples.

Results

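The effect of a diet on the mouse liver was compared between 2 feeding times, as the effect of the diet after 3 months minus its effect after 1 month. All 12 of the 12 libraries of the series enter this difference. The 4 groups were livers of wild-type C57BL/6 mice fed a diet named HFCF for 3 months, normal chow for 3 months, HFCF for 1 month, or normal chow for 1 month, with 3 biological replicates each. The labels do not spell out the name of the diet, and the series concerns experimental nonalcoholic steatohepatitis. The mice were 6 months old after 3 months of feeding and 3 months old after 1 month, so age and feeding time cannot be told apart, and the difference below takes up any change over time that HFCF and chow livers did not share. RNA was taken from whole liver, where fewer cells of a type and less RNA per cell cannot be told apart.

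In steatohepatitis the liver first stores fat in hepatocytes and later gathers inflammatory macrophages, while stellate cells become matrix-producing myofibroblasts. Hepatocytes also carry the short-term work of feeding and fasting, such as glycogen storage, and the defence against reactive compounds through glutathione. A gene may therefore follow the diet early and return, follow it late, or turn round. The difference of the effects picks out such genes, and the effect in each month separates the courses.

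Levels are given in CPM, that is, counts divided by the TMM-scaled size of each library. Effects are log2 fold changes of HFCF over chow ± SE, tested with edgeR's quasi-likelihood F test, and p-values were adjusted by Benjamini-Hochberg over 14725 genes, with a threshold of 0.05. The difference of the effects is on the same log2 scale, so a positive value means a more positive diet effect at 3 months. Of 14725 genes, 6 passed for the difference. It was higher in 3 (0.0204% of genes tested), Gstm6, Tnfaip3 and Nes, and lower in 3 (0.0204%), Dact2, Ccnd3 and Peg3. At an unadjusted p under 0.05 the difference was higher in 1338 genes (9.09%) and lower in 958 (6.51%). The diet effect itself passed in many more genes, with 1697 higher (11.5%) and 1105 lower (7.50%) in HFCF livers at 3 months, and 153 higher (1.04%) and 148 lower (1.01%) at 1 month.

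The count for the difference rested on 1 library and on the tool. HFCF 3-months replicate 3 lay at -29.3 on the first principal component of log2 CPM, which held 42.7% of the variance, against -60.7 and -63.8 for replicates 1 and 2 of its group. Without it the difference was higher in 573 genes (3.76%) and lower in 305 (2.00%). By the DESeq2 Wald test on all 12 libraries it was higher in 207 (1.41%) and lower in 160 (1.09%). All 367 of these DESeq2 calls had the same sign in edgeR, and 326 of them were among the 878 made without that library. These fits share their counts, so such agreement is partly built in and is no independent support. Calls also ended altogether when any 1 of 7 other libraries was left out, as the closing part sets out.

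**Figure D1:**
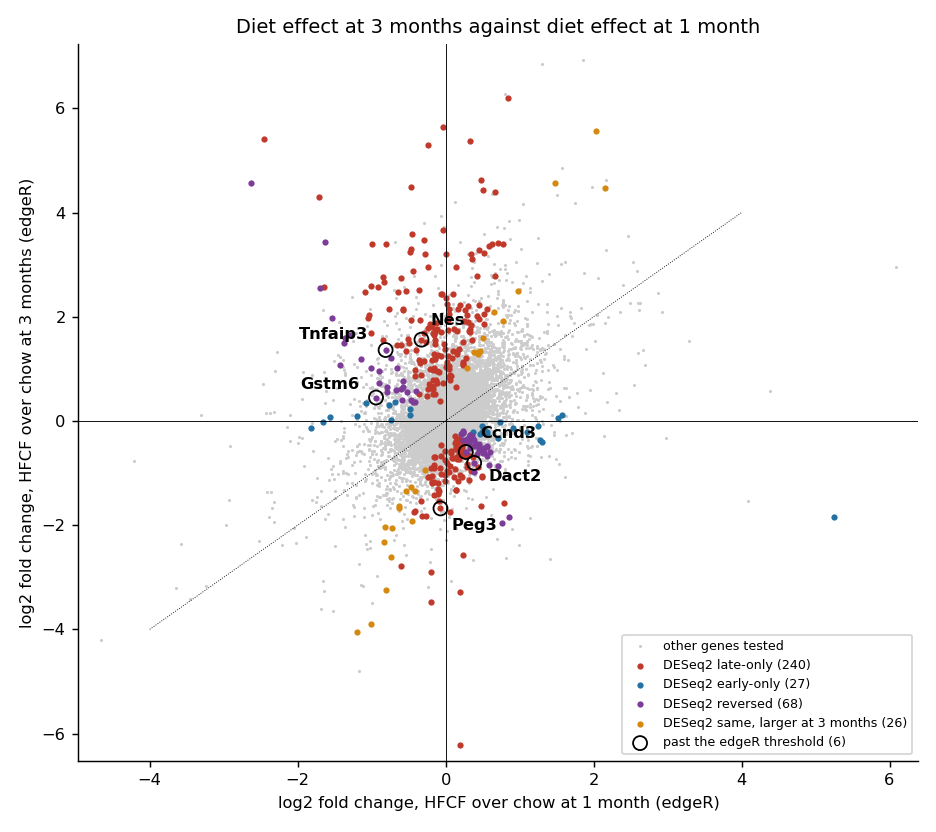
Each point is 1 of 14725 genes, placed by its log2 fold change of HFCF over chow at 3 months (vertical axis) and at 1 month (horizontal axis), both from edgeR. Colours mark the classes of the 367 DESeq2 calls other than 6 of mixed course, the dotted line marks equal effects, and the rings mark the 6 genes past the edgeR threshold: Gstm6 and Tnfaip3 lie at upper left, Nes above the centre, Dact2 and Ccnd3 at lower right and Peg3 below the centre.

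Genes past the threshold were sorted by their diet effect in each month. A gene was late-only if it passed at 3 months and had an unadjusted p of at least 0.05 at 1 month, early-only if the months stood the other way round, and reversed if both months had an unadjusted p under 0.05 with opposite signs. These classes use the libraries that gave the difference and are a description. Of the 6 genes, 4 were reversed, 2 were late-only and 0 were early-only. Among the reversed genes, 1, Gstm6, passed the adjusted threshold in both months.

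The 2 sequences below are shown because Tnfaip3 had the largest number of searched motifs in its window among the 6 genes, and because Gstm6 was the gene that passed in both months in opposite directions. They run from 250 bases before to 50 bases after a start in RefSeq on GRCm38.p6, 5′ to 3′ on the minus strand. That start lies inside the gene as the deposited table bounds it, by 247 bases for Tnfaip3 and by 15 for Gstm6, so 297 bases of the Tnfaip3 window and 65 of the Gstm6 window are within the gene by the table. The Tnfaip3 window is chr10:19015361-19015660 and the Gstm6 window is chr3:107943685-107943984. Capitals mark matches to 8 motifs searched on both strands, namely TATAAA, the AP-1 motif TGANTCA, the E-box CACGTG, the NF-kappaB motif GGGNNTTCC, the PU.1 core GAGGAAGT, the interferon response motif, the serum response motif CCATATTAG and the NRF2 core TGANNNNGC.
Tnfaip3: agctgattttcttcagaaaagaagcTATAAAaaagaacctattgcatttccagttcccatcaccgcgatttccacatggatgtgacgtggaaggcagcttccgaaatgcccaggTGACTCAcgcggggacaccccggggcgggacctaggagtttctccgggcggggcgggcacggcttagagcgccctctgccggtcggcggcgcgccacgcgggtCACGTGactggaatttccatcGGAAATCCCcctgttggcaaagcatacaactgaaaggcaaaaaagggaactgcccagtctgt
Gstm6: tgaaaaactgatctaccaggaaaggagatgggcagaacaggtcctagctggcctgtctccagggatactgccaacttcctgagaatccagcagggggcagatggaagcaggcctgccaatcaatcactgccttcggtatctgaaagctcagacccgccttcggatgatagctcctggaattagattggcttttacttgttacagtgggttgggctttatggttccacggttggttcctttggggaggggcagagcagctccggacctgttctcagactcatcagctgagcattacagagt
In the Tnfaip3 window the first base of each match, counted back from the RefSeq start, lay at 225 for TATAAA, 136 for AP-1, 33 for the E-box and 12 for NF-kappaB, the last on the minus strand of the window. Of the 10681 promoters matched to genes tested, 7.57% held TATAAA, 5.20% AP-1, 10.1% the E-box and 7.32% NF-kappaB. Gstm6 held none of the 8 motifs, nor did Peg3 and Dact2, while Ccnd3 and Nes each held the NRF2 core, which 43.0% of all promoters held. A match is a run of letters and not a measured site.

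Gstm6, a mu-class glutathione S-transferase that conjugates glutathione to reactive compounds, had 28.3, 33.2 and 31.0 CPM in HFCF livers at 3 months, against 22.2, 22.0 and 23.6 in chow livers. At 1 month it had 10.5, 16.4 and 10.4 CPM in HFCF livers, against 24.1, 21.5 and 25.9 in chow livers. The HFCF livers lay above all chow livers at 3 months and below all of them at 1 month, while the chow groups shared a range. Its diet effect was 0.45 ± 0.14 at 3 months (edgeR adjusted p = 0.0448) and -0.94 ± 0.15 at 1 month (edgeR adjusted p = 0.00813), and the difference was 1.39 ± 0.21 (edgeR adjusted p = 0.0419). In mm10 it (ENSMUSG00000068762) lies on chromosome 3 from 107938847 to 107943749, and by the table's own coordinates it shares 1417 bases with Gstm3 and 505 with Gm12494 on the same strand, so its reads may be split with theirs.

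Gstm6 stands in a run of 7 Gstm genes on chromosome 3, whose similar sequences make each count less certain, and whose values were looked up after Gstm6 was seen. Gstm3 had 14.2, 29.8 and 3.17 CPM in HFCF livers at 3 months, against 4.31, 4.05 and 3.67 in chow livers. At 1 month it had 1.01, 1.87 and 1.09 CPM in HFCF livers, against 5.15, 3.23 and 3.05 in chow livers. HFCF 3-months replicate 3 thus lay below the chow livers of its month, unlike the other 2. The difference was 3.52 ± 0.99 for Gstm3 (edgeR adjusted p = 0.151), 1.94 ± 0.47 for Gstm2 (edgeR adjusted p = 0.119) and 1.29 ± 0.47 for Gstm1 (edgeR adjusted p = 0.226). Gstm4 was at 0.44 ± 0.18, Gstm7 at 0.28 ± 0.21 and Gstm5 at -0.07 ± 0.30, the last of which turned positive, 0.046, when libraries were scaled by total size alone. None of these 6 neighbours passed by edgeR, and 4 had an unadjusted p under 0.05.

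Tnfaip3 encodes A20, a ubiquitin-editing enzyme that restrains NF-kappaB signalling. It had 14.6, 14.4 and 7.66 CPM in HFCF livers at 3 months, against 4.80, 5.95 and 3.60 in chow livers, and 3.91, 3.74 and 2.93 CPM in HFCF livers at 1 month, against 6.34, 6.22 and 6.09 in chow livers. Replicate 3 of HFCF at 3 months lay near the chow livers but still above them, and at 1 month every HFCF liver lay below every chow liver. The diet effect was 1.36 ± 0.23 at 3 months (edgeR adjusted p = 0.00201) and -0.81 ± 0.25 at 1 month (edgeR adjusted p = 0.116), with a difference of 2.17 ± 0.34 (edgeR adjusted p = 0.0464). Tnfaip3 (ENSMUSG00000019850) lies on chromosome 10 from 19000910 to 19015657.

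Dact2, an adaptor protein of the Dapper family, which acts in Wnt and TGF-beta signalling, turned the other way. It had 9.96, 9.03 and 12.6 CPM in HFCF livers at 3 months, against 18.6, 17.2 and 19.1 in chow livers, and 19.7, 18.4 and 20.1 CPM in HFCF livers at 1 month, against 13.8, 15.4 and 15.5 in chow livers. The groups did not overlap in either month, and the HFCF livers at 1 month stood near the level of chow livers at 3 months. The effect was -0.81 ± 0.12 at 3 months (edgeR adjusted p = 0.00106) and 0.39 ± 0.12 at 1 month (edgeR adjusted p = 0.119), a difference of -1.19 ± 0.17 (edgeR adjusted p = 0.0419).

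Ccnd3, cyclin D3 of the G1 phase of the cell cycle, had 16.2, 17.7 and 16.7 CPM in HFCF livers at 3 months, against 24.5, 26.3 and 25.8 in chow livers. At 1 month it had 29.5, 27.4 and 30.8 CPM in HFCF livers, against 23.8, 22.8 and 26.1 in chow livers. The months again turned round without overlap, with effects of -0.60 ± 0.09 at 3 months (edgeR adjusted p = 0.00106) and 0.27 ± 0.09 at 1 month (edgeR adjusted p = 0.139). The difference was -0.87 ± 0.13 (edgeR adjusted p = 0.0419). Its relative Ccnd1, cyclin D1, was higher in HFCF livers at 3 months (2.08 ± 0.22, edgeR adjusted p = 0.000274) and had a difference of 1.43 ± 0.30 (edgeR adjusted p = 0.0978), opposite in sign to that of Ccnd3. Dact2 (ENSMUSG00000048826) and Ccnd3 (ENSMUSG00000034165) both lie on chromosome 17, from 14195231 to 14203831 and from 47505051 to 47599683, and Ccnd3 shares 353 bases with Bysl on the other strand.

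Nes, which encodes the intermediate filament nestin of progenitor and activated stellate cells, was late-only. It had 6.55, 7.68 and 5.52 CPM in HFCF livers at 3 months, against 2.16, 1.96 and 2.62 in chow livers, and 1.57, 1.27 and 1.84 CPM in HFCF livers at 1 month, against 1.88, 1.94 and 2.05 in chow livers. Its rise was present in replicate 3 as in replicates 1 and 2. The effect was 1.56 ± 0.20 at 3 months (edgeR adjusted p = 0.000435) and -0.33 ± 0.23 at 1 month (edgeR adjusted p = 0.512), with a difference of 1.89 ± 0.30 (edgeR adjusted p = 0.0464). Nes (ENSMUSG00000004891) lies on chromosome 3 from 87971078 to 87980451.

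Peg3, an imprinted gene for a zinc finger protein that is expressed from the paternal copy, was late-only and lower. It had 12.3, 11.3 and 11.8 CPM in HFCF livers at 3 months, against 31.7, 42.8 and 38.8 in chow livers. At 1 month it had 23.2, 17.4 and 30.6 CPM in HFCF livers, against 23.4, 26.8 and 24.4 in chow livers, which lay within the HFCF range. The effect was -1.68 ± 0.17 at 3 months (edgeR adjusted p = 0.000179) and -0.07 ± 0.17 at 1 month (edgeR adjusted p = 0.883), and the difference was -1.61 ± 0.24 (edgeR adjusted p = 0.0419). The change over time, 3 months over 1 month, was -1.01 ± 0.17 in HFCF livers (edgeR adjusted p = 0.00299) and 0.60 ± 0.17 in chow livers (edgeR adjusted p = 0.382). Peg3 (ENSMUSG00000002265) lies on chromosome 7 from 6703892 to 6730421.

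**Figure D2:**
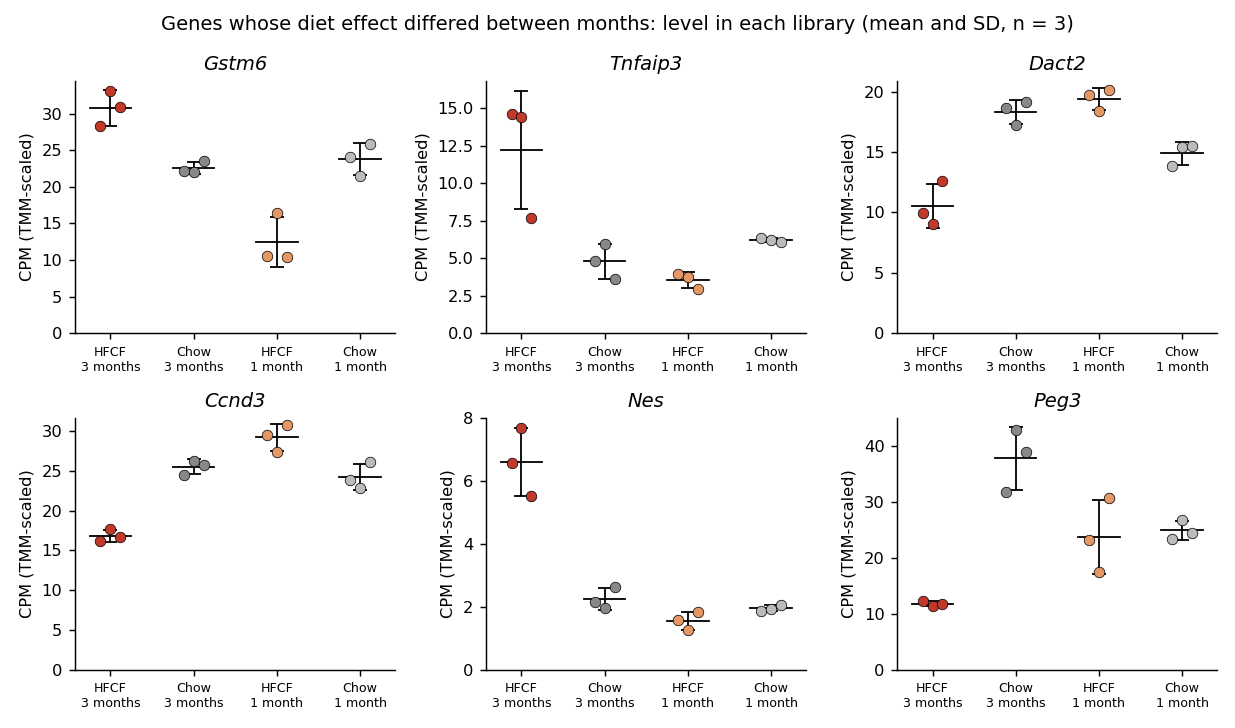
CPM of the 6 genes past the threshold in each of 12 libraries, with the mean and SD of 3 libraries per group; within each panel HFCF at 3 months, chow at 3 months, HFCF at 1 month and chow at 1 month run from left to right. Gstm6 and Tnfaip3 lie above chow at 3 months and below it at 1 month, Dact2 and Ccnd3 do the opposite, and Nes and Peg3 part from chow mainly at 3 months.

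The 6 genes were near the edge of the threshold. Each also passed by the DESeq2 Wald test and without HFCF 3-months replicate 3, and each kept its sign in all 12 fits that left out 1 library, but Peg3 passed in 3 of those fits and the others in 2. By limma-voom 3 of them passed, Gstm6, Dact2 and Ccnd3.

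Because edgeR left few calls, the courses are described further on the 367 genes that DESeq2 called, which were taken up after the edgeR counts were seen. Of these, 240 were late-only, 68 reversed, 27 early-only, 26 changed the same way in both months and more at 3 months, and 6 were of mixed course. None changed the same way and less at 3 months. The difference was higher in 153 of the late-only genes and lower in 87, higher in 28 and lower in 40 of the reversed genes, and higher in 10 and lower in 17 of the early-only genes. In edgeR the adjusted p of the difference ran from 0.0419 to 0.368 over the late-only genes, from 0.0745 to 0.228 over the early-only genes and from 0.0419 to 0.217 over the reversed genes. The genes named next are among those with the smallest p.

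Among late-only genes that were lower, Cd163, a scavenger receptor for haemoglobin on resident macrophages, had 11.4, 9.73 and 14.6 CPM in HFCF livers at 3 months, against 46.5, 35.6 and 37.4 in chow livers. After 1 month it had 50.6, 36.8 and 66.2 CPM in HFCF livers, against 43.8, 45.9 and 58.0 in chow livers. All 3 HFCF livers at 3 months, replicate 3 included, lay far below the other 9 libraries. The difference was -1.81 ± 0.30 (edgeR adjusted p = 0.0606, DESeq2 adjusted p = 1.08e-05). Apom, the carrier of sphingosine-1-phosphate on lipoproteins, had 120, 102 and 137 CPM in HFCF livers at 3 months, against 255, 274 and 291 in chow livers, with a difference of -1.01 ± 0.18 (edgeR adjusted p = 0.061). At 1 month its groups overlapped, at 206 to 263 CPM in HFCF livers and 248 to 302 in chow livers.

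Late-only genes that were higher included Casp12, an inflammatory caspase, with a difference of 1.54 ± 0.27 (edgeR adjusted p = 0.0606). Slamf7, a receptor of activated leukocytes, had 4.07, 4.84 and 1.52 CPM in HFCF livers at 3 months and 0.267 to 0.675 CPM in the other 9 libraries, with a difference of 3.49 ± 0.69 (edgeR adjusted p = 0.0683). Cyp2j6, a cytochrome P450 of fatty acid metabolism, came to be late-only by another route. It had 110 to 112 CPM in HFCF livers at 3 months, against 56.0 to 71.2 in chow livers, and 87.7 to 113 CPM in HFCF livers at 1 month, against 89.8 to 103 in chow livers. Chow livers were lower at 3 months than at 1 month by -0.64 (edgeR adjusted p = 0.0937), while HFCF livers changed by 0.15 (edgeR adjusted p = 0.382).

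Reversed genes by DESeq2 are given next. Abcb11, the bile salt export pump, had 528, 525 and 564 CPM in HFCF livers at 3 months, against 406, 431 and 427 in chow livers, and 346, 366 and 328 CPM in HFCF livers at 1 month, against 520, 434 and 461 in chow livers. The HFCF livers lay above chow at 3 months and below it at 1 month without overlap, with effects of 0.35 ± 0.11 (edgeR adjusted p = 0.0335) and -0.45 ± 0.11 (edgeR adjusted p = 0.0485) and a difference of 0.80 ± 0.15 (edgeR adjusted p = 0.0673). Etnk2, ethanolamine kinase of phospholipid synthesis, had 219, 209 and 268 CPM in HFCF livers at 3 months, against 441, 505 and 422 in chow livers, and 748, 597 and 798 CPM in HFCF livers at 1 month, against 655, 499 and 483 in chow livers. Its groups overlapped at 1 month and not at 3 months, and the difference was -1.36 ± 0.22 (edgeR adjusted p = 0.0514).

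Adora1, the adenosine A1 receptor, turned round in the same direction as Gstm6. It had effects of 0.65 ± 0.17 at 3 months (edgeR adjusted p = 0.0188) and -0.79 ± 0.17 at 1 month (edgeR adjusted p = 0.0349) and a difference of 1.44 ± 0.24 (edgeR adjusted p = 0.0606). Unlike those of Gstm6, its chow groups did not share a range, at 24.7, 17.5 and 15.4 CPM at 3 months and 33.2, 25.9 and 27.0 CPM at 1 month. Cyp26b1, which breaks down retinoic acid, had 2.25, 3.32 and 4.0 CPM in HFCF livers at 3 months, against 9.75, 10.2 and 14.3 in chow livers, and 6.43, 10.6 and 10.8 CPM in HFCF livers at 1 month, against 2.26, 7.04 and 5.95 in chow livers. Its groups overlapped at 1 month and not at 3 months, and the edgeR adjusted p of the effect at 1 month was 0.264. From 1 to 3 months HFCF livers changed by -1.55 (edgeR adjusted p = 0.0186) and chow livers by 1.16 (edgeR adjusted p = 0.47). The difference of Cyp26b1 was -2.71 ± 0.52 (edgeR adjusted p = 0.0819). Ier5, an immediate early gene, had a difference of 1.68 ± 0.33 (edgeR adjusted p = 0.0683).

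Early-only genes were few by each tool. In edgeR 38 genes were higher and 41 lower at 1 month with an unadjusted p of at least 0.05 at 3 months, and the difference passed in 0 of them, with an unadjusted p under 0.05 in 27 and 36. DESeq2 called 27 genes early-only, and 13 of these were early-only without HFCF 3-months replicate 3 as well. Gys2, the liver glycogen synthase, had 255, 252 and 322 CPM in HFCF livers at 3 months, against 293, 259 and 246 in chow livers. The 1-month values were 1050, 564 and 945 CPM in HFCF livers, against 276, 360 and 257 in chow livers. The HFCF livers at 1 month stood apart from the other 9 libraries, and the effect was 0.06 ± 0.20 at 3 months (edgeR adjusted p = 0.88) and 1.52 ± 0.21 at 1 month (edgeR adjusted p = 0.00541). The difference was -1.46 ± 0.29 (edgeR adjusted p = 0.0745). Pygl, the liver glycogen phosphorylase that works against it, had 251, 303 and 244 CPM in HFCF livers at 1 month, against 343, 388 and 381 in chow livers, and a difference of 0.60 ± 0.18 (edgeR adjusted p = 0.146).

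Irs2, an adaptor of the insulin receptor, had 27.0, 23.3 and 22.8 CPM in HFCF livers at 3 months, against 31.4, 15.9 and 20.5 in chow livers. At 1 month the gene had 33.5, 60.7 and 37.7 CPM in HFCF livers, against 12.9, 15.0 and 16.2 in chow livers. The groups overlapped at 3 months and not at 1 month, with a difference of -1.47 ± 0.37 (edgeR adjusted p = 0.122). Gpcpd1, a phosphodiesterase of glycerophosphocholine, had 320, 294 and 461 CPM in HFCF livers at 3 months, against 465, 431 and 515 in chow livers. After 1 month it had 1548, 1173 and 1369 CPM in HFCF livers, against 278, 699 and 677 in chow livers, and the difference was -1.70 ± 0.41 (edgeR adjusted p = 0.114).

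Slc30a10, a manganese exporter, had 18.9, 15.5 and 26.4 CPM in HFCF livers at 3 months, against 14.8, 26.7 and 25.3 in chow livers. The 1-month values were 9.23, 8.61 and 10.5 CPM in HFCF livers, against 38.4, 30.9 and 30.5 in chow livers. Only the 1-month groups were apart, with effects of -0.14 ± 0.23 at 3 months (edgeR adjusted p = 0.712) and -1.82 ± 0.24 at 1 month (edgeR adjusted p = 0.00558) and a difference of 1.68 ± 0.33 (edgeR adjusted p = 0.0855). Inhbb, a subunit of activin B, had the same course, with a difference of 1.64 ± 0.35 (edgeR adjusted p = 0.0934). Rcl1, of ribosomal RNA processing, had an effect of -0.01 ± 0.13 at 3 months and 0.73 ± 0.13 at 1 month (edgeR adjusted p = 0.0132), with a difference of -0.74 ± 0.18 (edgeR adjusted p = 0.104). Saa2, an acute phase protein with a close copy in Saa1, was also early-only by DESeq2, but its level was uneven within groups. It had 980, 15.4 and 2260 CPM in HFCF livers at 1 month, against 48.1, 30.6 and 6.52 in chow livers, and the edgeR adjusted p was 0.222 at 1 month and 0.228 for the difference.

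**Figure D3:**
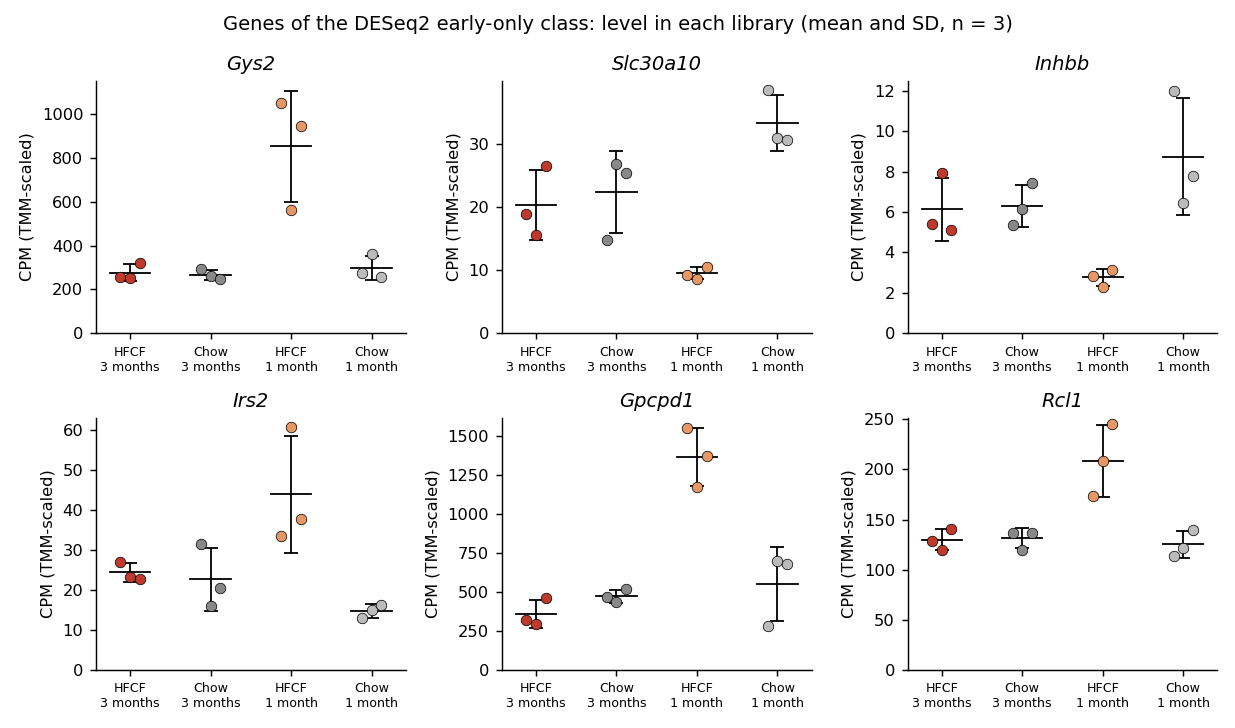
CPM of 6 genes of the DESeq2 early-only class in each of 12 libraries, with the mean and SD of 3 libraries per group, HFCF at 3 months, chow at 3 months, HFCF at 1 month and chow at 1 month from left to right. Gys2, Irs2, Gpcpd1 and Rcl1 stand above, and Slc30a10 and Inhbb below, chow in HFCF livers at 1 month, and the groups overlap at 3 months.

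Over time more genes passed in HFCF livers than in chow livers. At 3 months relative to 1 month 1362 genes rose and 1023 fell in HFCF livers, while in chow livers 1 gene passed, the clock gene Gm129, which fell by 2.26 (edgeR adjusted p = 0.00109), with 1190 genes at an unadjusted p under 0.05 (64 calls by DESeq2). Of the 240 late-only genes 228 also passed over time in HFCF livers and 0 in chow livers. The counts were 23 and 0 of the 27 early-only genes and 58 and 0 of the 68 reversed genes. The calls over time are edgeR's, with 2385 of 14725 genes called in HFCF livers and 1 in chow livers. The counts of 0 in chow livers were thus nearly fixed beforehand and do not show that chow livers stayed unchanged. These comparisons share their libraries with the difference and are set beside it as values. Of the 153 genes higher in HFCF livers at 1 month, 96 were also higher at 3 months and 0 were lower, and of the 148 lower genes, 82 were also lower at 3 months and 3 were higher. The median effect of the 153 genes was 0.55 at 3 months and 0.75 at 1 month, and that of the 148 genes was -0.53 at 3 months and -0.78 at 1 month. For the 1697 genes higher at 3 months the medians were 0.96 at 3 months and 0.25 at 1 month. For the 1105 genes lower at 3 months they were -0.58 and -0.18. Each set had the larger median in the month that chose it, so these medians do not show that effects waned or grew.

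Gene lists are described by their members tested, beside all genes tested, whose median difference was 0.01. Of all genes 11.5% were higher and 7.50% lower at 3 months, and 1.04% higher and 1.01% lower at 1 month, so a list with 0 members called at 1 month is near the background. For the difference at an unadjusted p under 0.05 the shares were 9.09% and 6.51%. By DESeq2 1.41% of genes were higher and 1.09% lower for the difference, and without HFCF 3-months replicate 3 it was 3.76% and 2.00%. That library was singled out because it stood apart in these data, so list counts without it are given as values and are no support. For matrix genes, the collagens, laminins and related proteins that myofibroblasts deposit, 18 of 32 were higher at 3 months and 0 of 32 at 1 month, with medians of 1.30 and -0.16. For the difference 0 of 32 passed by edgeR, 25 of 32 had a positive difference at an unadjusted p under 0.05, and the median was 1.40. DESeq2 called 11 of 32, and 20 of 32 passed without HFCF 3-months replicate 3. The median level of the list against the chow mean, on the log2(CPM + 1) scale, was 1.19, 1.37 and 0.23 in the HFCF livers at 3 months, against -0.24 to 0.15 in chow livers, and -0.13 to 0.13 in HFCF livers at 1 month, against -0.19 to 0.43 in chow livers. Replicate 3 thus lay inside the range of the chow livers over both months.

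Col12a1, a fibril-associated collagen, had 13.6, 16.5 and 6.48 CPM in HFCF livers at 3 months, against 3.29, 1.77 and 2.70 in chow livers, with a difference of 2.21 ± 0.47 (edgeR adjusted p = 0.0934). Thbs1, thrombospondin 1, which activates latent TGF-beta, had a difference of 3.04 ± 0.72 (edgeR adjusted p = 0.114). Col1a1, the main fibrillar collagen, had 30.1, 34.2 and 4.21 CPM in HFCF livers at 3 months, against 5.66, 1.70 and 2.40 in chow livers. At 1 month the gene had 4.08, 3.34 and 4.30 CPM in HFCF livers, against 12.7, 1.11 and 1.98 in chow livers. In each month 1 liver stood apart from its group, and the difference, 3.22 ± 1.42, did not pass (edgeR adjusted p = 0.322). Acta2, the smooth muscle actin of myofibroblasts, had a difference of 3.60 ± 1.49 (edgeR adjusted p = 0.29), with 14.3 CPM in replicate 1 of chow at 1 month against 2.00 and 0.425 in the other two.

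Among matrix proteases, their inhibitors and cross-linking enzymes, 14 of 23 were higher at 3 months and 0 of 23 at 1 month. The median difference was 1.61, with 15 of 23 positive at an unadjusted p under 0.05, 0 by the edgeR threshold and 7 by DESeq2. Timp1, an inhibitor of matrix proteases, had 65, 119 and 9 counts in HFCF livers at 3 months, against 1 in each chow liver, and 0, 1 and 0 counts in HFCF livers at 1 month, against 5, 1 and 1 in chow livers. Its effect at 3 months was 5.42 ± 0.89 (edgeR adjusted p = 0.00197), and the difference, 7.87 ± 2.03, rests on these few counts at 1 month (edgeR adjusted p = 0.122).

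Of the markers of lipid-associated and recruited macrophages, 16 of the 17 listed were tested, 14 were higher at 3 months and 0 at 1 month, with medians of 3.14 and 0.45. The median difference was 2.66, 10 of 16 were positive at an unadjusted p under 0.05, 0 passed by edgeR, 9 by DESeq2 and 12 without HFCF 3-months replicate 3. Summed over the list, HFCF livers at 3 months held 158 to 582 CPM, against 65.8 to 85.2 in chow livers, and HFCF livers at 1 month held 81.3 to 116 CPM, against 75.2 to 97.3 in chow livers. Ccr2, the receptor that brings monocytes into tissue, had 21.2, 20.4 and 11.5 CPM in HFCF livers at 3 months, against 2.21, 1.70 and 1.5 in chow livers, with a difference of 2.83 ± 0.58 (edgeR adjusted p = 0.0934). Gpnmb, a glycoprotein of lipid-laden macrophages, had 39.7, 44.6 and 1.93 CPM in HFCF livers at 3 months, against 1.02, 0.654 and 0.45 in chow livers, and a difference of 5.52 ± 1.90 (edgeR adjusted p = 0.221). Trem2, a lipid receptor of the same cells, had 11.5, 12.0 and 1.45 CPM in HFCF livers at 3 months, against 1.40, 0.588 and 1.05 in chow livers, and a difference of 1.80 ± 1.07 (edgeR adjusted p = 0.463). In replicate 3 Ccr2 was raised while Gpnmb and Trem2 stood close to chow.

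Leukocyte lists of other kinds follow. Of 24 phagocyte and leukocyte genes 20 were higher at 3 months and 0 at 1 month, with median effects of 1.40 and 0.56. For the difference 9 were positive at an unadjusted p under 0.05, with a median of 0.78. At 1 month the list's median level against the chow mean was 0.71, 0.10 and 0.46 in HFCF livers, against -0.07 to 0.06 in chow livers. Of 20 chemokines and receptors 14 were higher at 3 months and 1 at 1 month, with median effects of 1.645 and 0.47 and a median difference of 1.23. Of 20 toll-like receptors, inflammasome genes and cytokines 12 were higher at 3 months and 0 at 1 month, and 1, Tnfaip3, passed for the difference, beside Relb, a subunit of NF-kappaB, at 2.09 ± 0.44 (edgeR adjusted p = 0.0909). Of 12 resident Kupffer cell markers, 3 were higher and 0 lower at 3 months, and 0 were called at 1 month. Their medians were 0.41 and 0.34, with a median difference of -0.11. The fall of Cd163 at 3 months was thus not seen over this list. Interferon-stimulated genes were higher in 15 of 22 at 3 months and 2 of 22 at 1 month, but their median effects were 1.03 and 0.66 and the median difference was 0.25, with 3 of 22 positive at an unadjusted p under 0.05. Of 12 neutrophil markers 3 were tested, and of 16 T and NK cell markers 4.

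Markers of stellate cells and myofibroblasts had a median difference of 0.63, with 7 of 17 positive and 1 negative at an unadjusted p under 0.05. Their summed level was 480 to 640 CPM in HFCF livers at 3 months, against 394 to 488 in chow livers, and 416 to 452 CPM in HFCF livers at 1 month, against 405 to 511 in chow livers. The 1 negative member was Hhip, a hedgehog inhibitor of quiescent stellate cells, at -1.45 ± 0.37 (edgeR adjusted p = 0.114). Cholangiocyte markers, 10 of 14 tested, summed to 90.1 to 252 CPM in HFCF livers at 3 months and 44.9 to 78.0 CPM over the other 9 libraries. Most of the sum in HFCF livers at 3 months was 1 gene, Spp1, with 207, 214 and 56.2 CPM, against 37.0, 25.5 and 30.9 in chow livers. The list's median level against the chow mean was 0.49, 0.58 and -0.01 in these HFCF livers, and 0.47 in replicate 1 of chow at 1 month. Of the 10 genes 3 were higher at 3 months and 0 at 1 month. Hepatocyte identity genes summed to 99970 to 116000 CPM in HFCF livers at 3 months, against 125500 to 132200 in chow livers, and to 111900 to 125000 CPM in HFCF livers at 1 month, against 127100 to 147100 in chow livers. These sums were thus lower in HFCF livers without overlap in both months, but much of each was Alb. Alb had 34480 to 56525 CPM in HFCF livers at 1 month, against 51123 to 59799 in chow livers. At 1 month the list's median level against the chow mean was -0.14 to -0.12 in HFCF livers and -0.11 to 0.11 in chow livers. Of the 20 genes 3 were lower at 3 months and 0 at 1 month, and the median difference was -0.12. The sinusoidal endothelial markers had a median difference of -0.04.

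Adipocyte genes, 6 of 10 tested, summed to 1921 to 2465 CPM in HFCF livers at 3 months, against 237 to 635 in chow livers, and 102 to 879 CPM in HFCF livers at 1 month, against 163 to 268 in chow livers. The groups were apart at 3 months, replicate 3 of HFCF included, and overlapped at 1 month. Of the 6 genes 3 were higher at 3 months, Cidea, Cfd and Fabp4, and 1 at 1 month, Lipe, and the median difference was 1.47. For the difference 0 passed by edgeR and 0 by DESeq2, and 2 were positive at an unadjusted p under 0.05. Most of the sum was Car3, a carbonic anhydrase that hepatocytes also make, with 2260, 1766 and 2279 CPM in HFCF livers at 3 months, against 311, 216 and 611 in chow livers. Its difference was 1.33 ± 1.08 (edgeR adjusted p = 0.616). Cfd, the complement factor adipsin, had 92.2, 60.8 and 145 CPM in HFCF livers at 3 months, against 1.13, 0.262 and 0.975 in chow livers, with a difference of 5.08 ± 1.96 (edgeR adjusted p = 0.264). Adipoq, the adipocyte hormone adiponectin, was too low to be tested, with 2, 0 and 1 counts in HFCF livers at 3 months, against 1, 1 and 0 in chow livers, and 1, 5 and 1 counts in HFCF livers at 1 month, against 27, 0 and 0 in chow livers. The part of cell composition in the differences was not tested.

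Actin, intermediate filament and tubulin genes were higher in 15 of 27 at 3 months and 0 of 27 at 1 month, and 14 were positive for the difference at an unadjusted p under 0.05, with a median of 0.96. Tubb5, a beta-tubulin, had a difference of 0.92 ± 0.21 (edgeR adjusted p = 0.0983). Of 22 cell cycle genes 13 were higher at 3 months, and at 1 month 0 were higher and 1 lower. Their median effects were 0.85 at 3 months and 0.48 at 1 month, with a median difference of 0.37. At 1 month the list's median level against the chow mean was 0.21 to 0.33 in HFCF livers, against -0.13 to 0.11 in chow livers.

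Glutathione and NRF2 target genes, which buffer reactive compounds, had medians of opposite sign in the 2 months. Their median effect was 0.36 at 3 months and -0.18 at 1 month, with 8 of 23 higher and 1 lower at 3 months and 0 higher and 2 lower at 1 month. For the difference 11 of 23 were positive and 1 negative at an unadjusted p under 0.05, the median was 0.70, and 1, Gstm6, passed. The list's level against the chow mean was 0.43, 0.48 and 0.11 in HFCF livers at 3 months, against -0.02 to 0.03 in chow livers, and -0.23 to -0.12 in HFCF livers at 1 month, against -0.10 to 0.03 in chow livers. By this median all HFCF livers lay above chow at 3 months and, narrowly, below it at 1 month. By summed CPM they lay above chow at 3 months, at 7420 to 7562 against 5925 to 7163, and overlapped it at 1 month, at 5366 to 6435 in HFCF livers against 6063 to 6298 in chow livers. Gclc, which makes the first step of glutathione synthesis, had 384, 434 and 359 CPM in HFCF livers at 3 months, against 202, 162 and 188 in chow livers, with a difference of 0.86 ± 0.21 (edgeR adjusted p = 0.104). Gstp1, a pi-class transferase, went against the list. It had 92.7, 102 and 86.8 CPM in HFCF livers at 3 months, against 261, 290 and 328 in chow livers, and 199, 157 and 149 CPM in HFCF livers at 1 month, against 269, 265 and 245 in chow livers. It was lower in HFCF livers in both months and more so at 3 months, with a difference of -1.02 ± 0.18 (edgeR adjusted p = 0.0606).

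Urea cycle and amino acid catabolism genes were lower in 19 of 26 at 3 months and 0 of 26 at 1 month, with medians of -1.16 and -0.43. The median difference was -0.69, with 11 of 26 negative at an unadjusted p under 0.05, 0 by the edgeR threshold, 3 by DESeq2 and 10 without HFCF 3-months replicate 3. Asl, which splits argininosuccinate, had 229, 255 and 460 CPM in HFCF livers at 3 months, against 1835, 2011 and 1884 in chow livers. After 1 month it had 1284, 1251 and 2093 CPM in HFCF livers, against 3015, 2293 and 2383 in chow livers. Both months were lower without overlap, and the difference was -1.87 ± 0.37 (edgeR adjusted p = 0.0737). Cps1, which feeds ammonia into the cycle, had a difference of -1.30 ± 0.41 (edgeR adjusted p = 0.157). Pck1, of gluconeogenesis, was lower at 3 months (-1.08 ± 0.21, edgeR adjusted p = 0.00434), had an effect of 0.22 ± 0.21 at 1 month, and had a difference of -1.30 ± 0.30 (edgeR adjusted p = 0.0983).

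Acute phase genes had medians of -0.04 at 3 months and 0.48 at 1 month, a median difference of -1.05, and 7 of 18 negative at an unadjusted p under 0.05. Their level was uneven within the HFCF livers at 1 month, at 0.74, -0.59 and 1.03 against the chow mean, against -0.28 to 0.21 in chow livers. At 3 months it was 0.04, 0.09 and -0.21 in HFCF livers, against -0.39 to 0.42 in chow livers. Fgl1, a secreted hepatocyte protein, had 1112, 255 and 1337 CPM in HFCF livers at 1 month, against 742, 581 and 453 in chow livers, so that replicate 2 stood apart from replicates 1 and 3.

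Cholesterol synthesis genes followed the diet in both months. They were lower in 18 of 24 at 3 months and 14 of 24 at 1 month, with medians of -1.22 and -0.83 and a median difference of -0.20. Sqle, squalene epoxidase, had 3.09, 2.62 and 2.41 CPM in HFCF livers at 3 months, against 24.6, 23.1 and 28.0 in chow livers, and 1.57, 2.80 and 2.12 CPM in HFCF livers at 1 month, against 11.7, 33.7 and 35.4 in chow livers. Its difference was 0.44 ± 0.56 (edgeR adjusted p = 0.764). Lipogenesis genes were mixed, with 9 of 24 higher and 4 lower at 3 months and 2 higher and 2 lower at 1 month. Their median effects were 0.28 and 0.07. For the difference 8 of 24 were positive and 2 negative at an unadjusted p under 0.05, with a median of 0.13. Scd1, stearoyl-CoA desaturase, had 13243, 18174 and 10793 CPM in HFCF livers at 3 months, against 644, 589 and 666 in chow livers, and 4146, 10302 and 3552 CPM in HFCF livers at 1 month, against 1597, 1238 and 1221 in chow livers. It was higher in both months and more so at 3 months, with a difference of 2.32 ± 0.48 (edgeR adjusted p = 0.0934). Cd36, a fatty acid transporter, had a difference of 1.51 ± 0.32 (edgeR adjusted p = 0.0934). Fasn and Srebf1 had differences of 1.10 ± 0.52 (edgeR adjusted p = 0.346) and 1.18 ± 0.52 (edgeR adjusted p = 0.311). Their courses were unlike. Fasn had effects of -0.28 ± 0.37 at 3 months (edgeR adjusted p = 0.634) and -1.385 ± 0.37 at 1 month (edgeR adjusted p = 0.105). Srebf1 had effects of 2.03 ± 0.37 at 3 months (edgeR adjusted p = 0.00622) and 0.84 ± 0.37 at 1 month (edgeR adjusted p = 0.3).

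**Figure D4:**
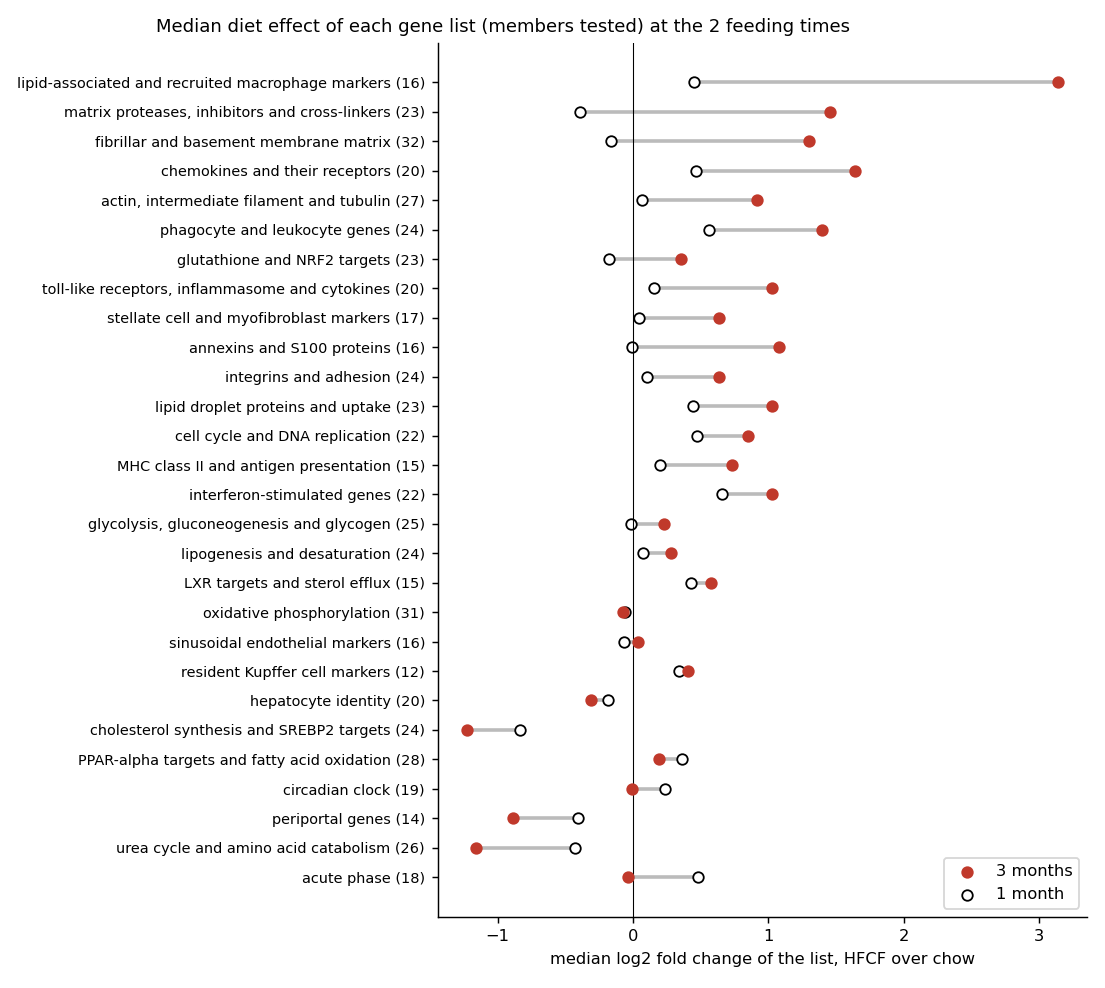
Median log2 fold change of HFCF over chow for 28 gene lists at 3 months (filled) and at 1 month (open), ordered by the median difference, with the number of members tested in brackets. The lipid-associated and recruited macrophage, matrix and chemokine lists stand at 1.30 to 3.14 at 3 months and -0.39 to 0.47 at 1 month. Cholesterol synthesis stands at -1.22 and -0.83, and oxidative phosphorylation and endothelial lists stay near 0 in both.

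**Figure D5:**
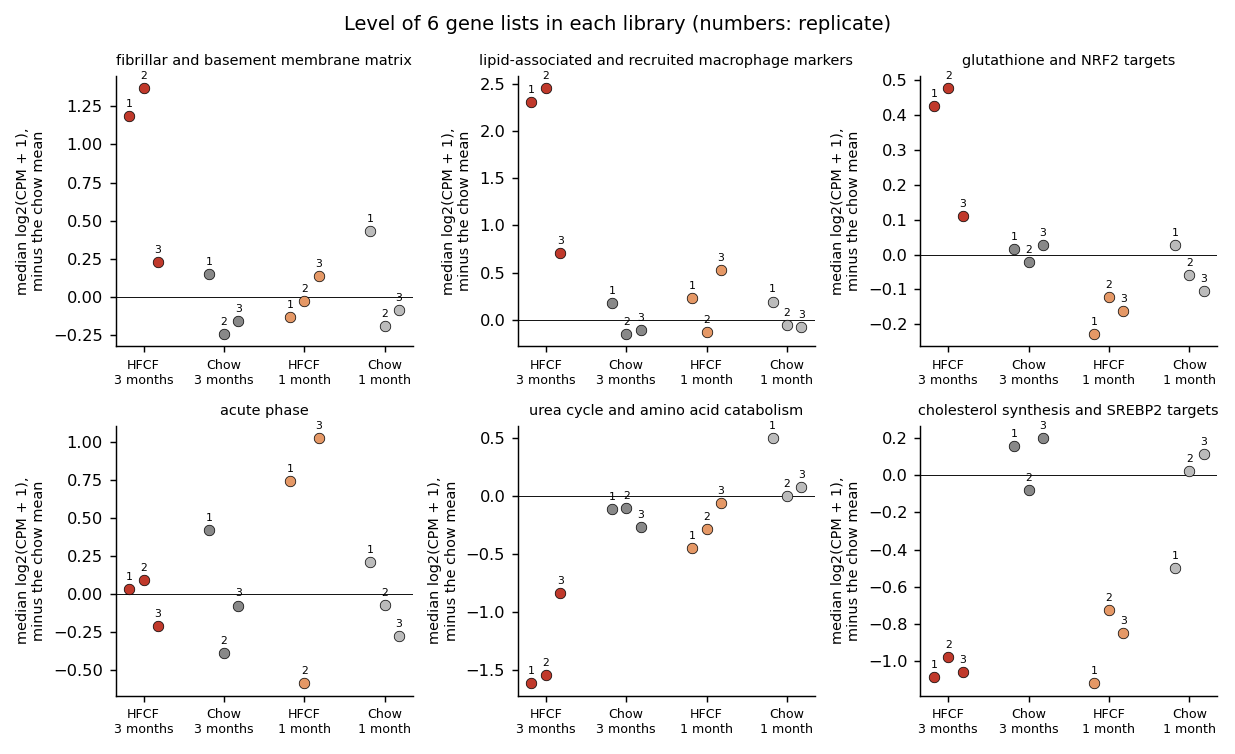
Median log2(CPM + 1) of 6 gene lists in each library, minus the mean of the 6 chow libraries, with the replicate number above each point and HFCF at 3 months, chow at 3 months, HFCF at 1 month and chow at 1 month from left to right. HFCF 3-months replicate 3 lies at 0.23 for matrix genes, where replicates 1 and 2 lie at 1.19 and 1.37, and at -1.06 for cholesterol synthesis, where they lie at -1.09 and -0.98.

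The remaining genes that were to be given whatever their p did not pass for the difference. Ppp1r3g, which directs a phosphatase to glycogen, had 39.1, 25.2 and 11.2 CPM in HFCF livers at 3 months, against 5.98, 0.654 and 2.85 in chow livers, and 48.5, 144 and 92.2 CPM in HFCF livers at 1 month, against 0.377, 1.76 and 2.05 in chow livers. It was higher in both months, by 2.96 ± 0.76 at 3 months and 6.09 ± 0.87 at 1 month, and the difference was -3.14 ± 1.18 (edgeR adjusted p = 0.252). Cdkn1a, the p21 inhibitor of the cell cycle, had 3.18, 5.54 and 0.621 CPM in HFCF livers at 3 months, against 2.48, 7.71 and 6.67 in chow livers. The 1-month values were 0.951, 1.14 and 1.02 CPM in HFCF livers, against 31.8, 9.09 and 16.9 in chow livers, with a difference of 3.44 ± 1.05 (edgeR adjusted p = 0.175). Cyp4a14, a fatty acid hydroxylase, had a difference of -1.63 ± 0.69 (edgeR adjusted p = 0.29), and Cidea, a lipid droplet protein of the adipocyte list above, one of 5.54 ± 2.05 (edgeR adjusted p = 0.242). Adjusted p for the difference was 0.524 to 0.957 in edgeR for Arntl, Cidec, Ifi44, Fgf21, Cyp7a1, Cyp2b10 and Alb, with differences from -0.49 to 0.73, and these do not show that the months were alike.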

How the data were processed

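Liver total RNA was sequenced from stranded TruSeq libraries depleted of ribosomal RNA, per the labels' protocols. The authors deposited raw counts per gene on mm10, per the submitters' processing notes, and the sources used here name no aligner, counter or strand setting. FPKM values, log2 ratios and a score of the adjusted p, all made by the authors and deposited in the same table, were not used. 1 empty line was dropped.

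Counts of 16035 genes were filtered with filterByExpr, which left 14725, and scaled by TMM with factors of 0.921 to 1.14. Libraries held 13733485 to 20277572 counts. A robust quasi-likelihood fit of 4 group means in edgeR 4.0.16 (R 4.3.3) gave each contrast, and the SE was taken from the effect and its F statistic (the effect over the root of F). The common biological coefficient of variation was 0.153. DESeq2 1.42.0, limma-voom (limma 3.58.1), other scalings and filters, a replicate block and each library left out were alternatives. The fit was tested on simulated counts.

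Genes past the threshold were named by smallest p with a mean of at least 1 CPM, with 20 genes whatever their p. DESeq2 classes and list members with the smallest p were named after the data were seen, and 1 such gene is not reported here. The members and lists were chosen with earlier results of these data known, and 1040 of 1094 list entries matched the table. Overlaps with annotated neighbours occur for many named genes, such as Adora1, Irs2, Slc30a10, Pygl, Timp1 and Dact2, whose counts are less certain, as are those of gene families. Promoters were matched for 10681 of 14725 genes by gene identifier, taking the window nearest to the start of the gene in the table, whose own starts count from 0 and were raised by 1. Figures were drawn with matplotlib 3.10.9.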

Additional observations from a re-analysis of the deposited data

Results flagged for a closer look

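The diet effect differed between the 2 months, by the test of the difference itself, in 6 genes. On the log2 scale the difference, 3 months minus 1 month, was 1.39 for Gstm6, 2.17 for Tnfaip3 and 1.89 for Nes. It was -1.19 for Dact2, -0.87 for Ccnd3 and -1.61 for Peg3. The edgeR adjusted p of each was 0.0419 or 0.0464.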

How the results depend on the processing

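The 6 calls for the difference became 0 with total library size alone, which moved the median difference of all genes to 0.108, 3 by limma-voom, 48 with the replicate block, 127 at an adjusted p under 0.1, 367 by the DESeq2 Wald test and 635 without the 2 libraries that stood apart on principal components, HFCF 3-months replicate 3 and Chow 1-month replicate 1, both left out after the data were seen. They ran from 0 to 878 as each library was left out in turn: 878 without HFCF 3-months replicate 3, 59 without HFCF 1-month replicate 2, 0 without any of HFCF 3-months replicates 1 and 2, Chow 3-months replicates 2 and 3, HFCF 1-month replicate 3 and Chow 1-month replicates 2 and 3, and 1 to 3 without the others. In the same settings late-only genes numbered 0 with total library size, 0 by limma-voom, 26 with the replicate block, 240 by DESeq2, 457 without both libraries, 1 when genes needed 1 CPM on average and 4 without robust estimation (0 to 607 with 1 library left out). Early-only genes numbered 27 by DESeq2 and 12 without both libraries (0 to 29), and reversed genes 0 with total library size, 14 with the replicate block, 68 by DESeq2 and 79 without both (0 to 143). The genes at 1 month, 301, became 630 by DESeq2 and 149 without both libraries (65 to 396), and the 2802 at 3 months became 3910 without both (1255 to 3631). Over time, HFCF calls, 2385, became 3907 with total library size and 3808 without both libraries (732 to 3562), and chow calls, 1, became 64 by DESeq2 and 2 with DESeq2 size factors, total library size, no filter or both libraries left out (1 to 8). The cause was not tested.

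Deviations of same-numbered libraries correlated at -0.173 to 0.19, over 0.1 in 5 of 18 pairs, against -0.248 to 0.24 for other numbers. With 3 libraries a group, these overlapping ranges cannot settle whether replicate numbers pair the libraries. The 6 calls were among the 48 made with the replicate block. Of 68 named genes 3 changed sign of a difference that did not pass: Alb, 0.044 with total library size and -0.188 to 0.195 with 1 library left out, Gstm5, 0.046 with total library size, 0.122 without both libraries and -0.281 to 0.112 with 1 left out, and Cyp2b10, -0.312 to 2.94 with 1 left out. With 3 livers a group, genes of few counts and lists that differ within HFCF at 3 months limit what could be told.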
